A study of Homo sapiens with 8 samples.

Results

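Transcript levels under 2 inducible short hairpin RNAs (shRNAs) against the same target, SIRT1, were compared with each other in DND41, a long-cultured human line of T-cell acute lymphoblastic leukemia (T-ALL) with an activating NOTCH1 mutation and a TLX3 rearrangement. The hairpins are called sh1 and sh3 after their labels, and their libraries were chosen by title: 3 with sh1 and 3 with sh3, which makes 6 of the 8 libraries at hand. Of 18133 gene rows, the 13885 with a mean of at least 10 normalized counts over the 8 libraries were tested, and the other 4248 were not. The 2 remaining libraries carry a control shRNA and serve as the reference level. Control B was not analysed here.

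All 3 groups were DND41 cells grown in RPMI with fetal bovine serum, and all received doxycycline for 72 h to switch on their hairpin, so no group was free of doxycycline or of a hairpin. The labels call the genotype of sh1 and sh3 Sirt1 inhibited. They do not give the hairpin sequences, the sites they target or what 1 and 3 stand for. Cells were plated in triplicate and nothing says that the libraries come from separate infections, so p-values measure the spread between these libraries, which may be technical.

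The labels of sh3 C contradict each other: the title and the genotype give a SIRT1 hairpin, whereas the description gives the control hairpin. Across genes its values had a Spearman coefficient of at least 0.9955 with the other sh3 libraries, against 0.9925 and 0.991 with the controls. It was nevertheless the sh3 library closest to the controls, with which sh3 A had 0.9912 and 0.9896 and sh3 B 0.9905 and 0.989. It was kept in sh3, and counts without it are given beside those with it. The libraries held 33087820 to 34072666 normalized counts each, with 2.71% to 3.07% from mitochondrially encoded genes, and the median within-group SD on the log2 scale was 0.1014 for sh1, 0.0859 for sh3 and 0.0795 for control.

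SIRT1 is a nuclear deacetylase that consumes NAD and removes acetyl groups from histones and from transcription factors such as p53 and the FOXO proteins. An shRNA is processed into a small RNA that guides the silencing machinery to a matching transcript. Short stretches of that small RNA can also pair with other transcripts, so hairpins of different sequence against 1 target share the target and not the rest of what they pair with. T-ALL cells are arrested at an immature stage of thymocyte development, where NOTCH1, interleukin 7 signalling, rearrangement of the T-cell receptor genes and surface CD1 molecules are characteristic.

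The target itself was measured first. SIRT1 (chr10:67884669-67918390, GRCh38) stood at 1259, 1312 and 1328 normalized counts in sh1 A, B and C, at 1099, 1217 and 1179 in sh3 A, B and C, and at 1745 and 1919.5 in control A and C. Every library with a SIRT1 hairpin lay below both controls, and the 3 sh3 libraries lay below the 3 sh1 libraries. The mean was 1299.7 ± 36.5 (SD, n = 3) in sh1 and 1165 ± 60.1 (SD, n = 3) in sh3, or 70.9% and 63.6% of the control mean. On the log2(value + 1) scale the level was 0.16 ± 0.06 (SE) higher in sh1 than in sh3, with a 95% interval of 0.02056 to 0.2964 before adjustment over genes and an adjusted p of 0.14 in limma, so the hairpins were not separated at the threshold and were not shown to be alike. Against control the difference was -0.49 for sh1 (adjusted p = 0.0029) and -0.65 for sh3 (adjusted p = 0.00014).

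Direct comparison called 1589 of 13885 genes (11.4%) at an adjusted p under 0.05, of which 779 (5.61%) were higher in sh1 and 810 (5.83%) were higher in sh3. Without sh3 C the count was 1236, with 588 higher in sh1 and 648 higher in sh3, and 1121 of these were called in the same direction with it. The count also depended on other libraries: it was 1019 without sh1 B, 965 without sh3 A and 925 without sh3 B. For reference, sh1 differed from control in 876 genes (6.31%) and sh3 in 2576 genes (18.6%); these comparisons share their control libraries, and without control C they called 159 and 860.

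The 3 libraries of each hairpin did not overlap for 4231 genes (30.5%), which include 1586 of the called ones. Most of the called differences were small. Their median size was 0.339 on the log2 scale, against 0.12 for all genes tested, and 1143 of them (71.9%) were under 0.5. A size of at least 1 was reached by 168 called genes, 111 of them higher in sh1 and 57 higher in sh3, and a size of at least 2 by 31 and 7. Of the 168, 105 had a mean of 10 to 100 normalized counts (68 higher in sh1 and 37 higher in sh3). The median SE of tested genes was 0.319 at that level and 0.047 from 5000 upward. The share called followed the level of expression: 4.42% of genes with a mean of 10 to 100 normalized counts, 11.7% from 100 to 1000, 13.5% from 1000 to 5000 and 19.2% from 5000 upward. Protein-coding genes were called in 12% of cases and pseudogenes in 4.25%. Over the numbered chromosomes and X, the share was lowest on 19 (7.67%) and highest on 20 (15.3%).

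**Figure D1:**
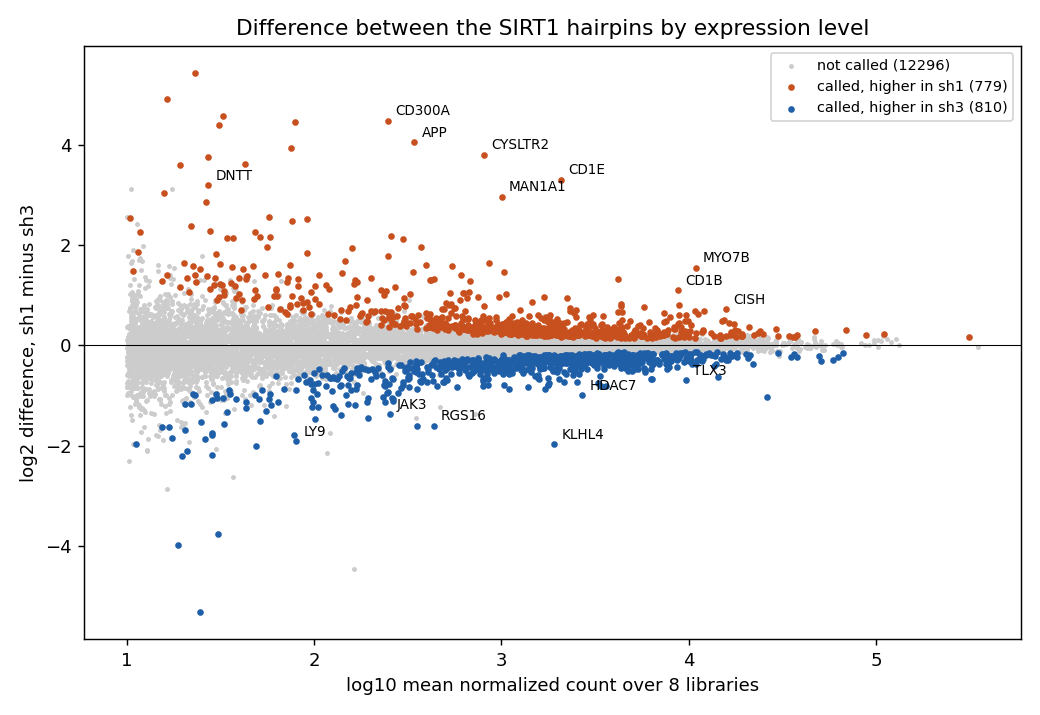
Each point is 1 of 13885 genes, with the log10 of its mean normalized count over 8 libraries on the x axis and the log2 difference of sh1 minus sh3 on the y axis. The 779 genes called higher in sh1 and the 810 called higher in sh3 are coloured, and called differences of at least 2 on the log2 scale lie mostly on the sh1 side (31 genes against 7).

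The genes that separated the hairpins most and were higher in sh1 came from unrelated families. CD300A, an inhibitory receptor of leukocytes (chr17:74466399-74484796), stood at 376, 352 and 367 in sh1, at 18.8, 8.9 and 21.9 in sh3 and at 425 and 422 in control. Its sh3 level was thus far below every other library, with a difference between hairpins of 4.47 ± 0.25 (SE, adjusted p = 1.7e-06). APP, which encodes the amyloid precursor protein (chr21:25880550-26171128), had another arrangement. It stood at 737, 848 and 799 in sh1, at 40.9, 37.1 and 68.9 in sh3 and at 110.1 and 103 in control. Here sh1 lay above control (2.88, adjusted p = 8e-05), sh3 lay below it (-1.16, adjusted p = 0.0048), and the hairpins differed by 4.04 ± 0.20 (adjusted p = 5.1e-07).

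CYSLTR2 and CYSLTR1 are the receptors for cysteinyl leukotrienes, lipid mediators of inflammation, and the hairpins separated them in opposite directions. CYSLTR2 (chr13:48653711-48711226) stood at 1467, 1380.3 and 1485 in sh1, at 80.4, 91.9 and 147 in sh3 and at 849 and 955 in control. CYSLTR1 (chrX:78271464-78327691) stood at 31.5, 29.8 and 29.7 in sh1, at 71.8, 75.2 and 84.5 in sh3 and at 55.8 and 65.3 in control. The groups of neither gene overlapped, and the differences of sh1 minus sh3 were 3.80 ± 0.17 (adjusted p = 3.5e-07) and -1.31 ± 0.19 (adjusted p = 0.00087).

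MAN1A1, a Golgi mannosidase that trims N-glycans (chr6:119177209-119349761), was the most precisely measured of this group. Its values were 1811, 1757 and 1701 in sh1, 219, 245 and 212 in sh3 and 1058 and 1028 in control. It was above control with sh1 (0.75, adjusted p = 0.00056) and below control with sh3 (-2.21, adjusted p = 9.7e-08), and the hairpins differed by 2.96 ± 0.07 (adjusted p = 2.1e-09). The vesicular polyamine transporter SLC18B1 differed by 2.55 ± 0.26 and the G-protein signalling modulator GPSM1 by 2.48 ± 0.18. SLC18B1 stood at 110.0, 129.7 and 109 in sh1, at 18.1, 26.8 and 14.2 in sh3 and at 29.8 and 21.3 in control, so that sh3 and control overlapped and sh1 stood alone. Among the others of the 12 with the largest differences higher in sh1 were the ankyrin-repeat gene ANKS6 (3.92), the flagellar gene SPEF2 (2.51), FLT4, a receptor for vascular endothelial growth factors (2.17), the olfactory receptor gene OR10R2 (4.45) and CD1E (3.30), of which the last pair is described with its neighbours. GPSM1 overlaps the coding gene DNLZ.

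Among genes higher in sh3 with a mean of at least 50, KLHL4, a kelch-family gene (chrX:87517749-87670050), came first with 686, 650.4 and 636 in sh1 against 2650.1, 2639 and 2460.0 in sh3 and 2818 and 2826 in control. Its low group was sh1 (-2.10 against control, adjusted p = 1.4e-08), sh3 did not differ from control at the threshold (-0.13, adjusted p = 0.18), and the hairpins differed by -1.97 ± 0.06 (adjusted p = 4.1e-09). LY9, a SLAM-family receptor of lymphocytes (chr1:160796074-160828261), stood at 32.5, 33.1 and 33.4 in sh1, at 114, 145 and 124 in sh3 and at 73.3 and 88.6 in control. Control lay between the hairpins for LY9, whose difference was -1.91 ± 0.17 (adjusted p = 4.7e-05).

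NOG, which encodes the BMP antagonist noggin (chr17:56593699-56595590), stood at 38.5, 41.9 and 40.7 in sh1, at 159, 119.9 and 151 in sh3 and at 36.0 and 40.8 in control. RGS16, a brake on G-protein signals (chr1:182598623-182604408), stood at 200.1, 216 and 224 in sh1, at 628, 637 and 683 in sh3 and at 437 and 456 in control. NOG was high in sh3 alone, and RGS16 was low in sh1 and high in sh3 relative to control (-1.06, adjusted p = 0.00017, and 0.54, adjusted p = 0.0035). The differences between hairpins were -1.79 ± 0.18 (adjusted p = 0.0001) for NOG and -1.60 ± 0.09 (adjusted p = 1.2e-06) for RGS16. TNFRSF1B, a receptor for tumor necrosis factor, differed by -1.60 ± 0.17, the growth factor receptor FGFR1 by -1.45 ± 0.17, the RNA-binding ubiquitin ligase TRIM71 by -1.38 ± 0.16 and the kelch-family gene ENC1 by -1.26 ± 0.16. The axonemal dynein DNAH17 (-1.46) and the kinase JAK3 (-1.37) were also among the 12 largest, as was the mucin MUC1 (-1.52), which was not called without sh3 A (-1.19, adjusted p = 0.063). FGFR1, ENC1, DNAH17 and MUC1 each overlap another coding gene, and the labels do not say whether reads were assigned by strand.

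**Figure D2:**
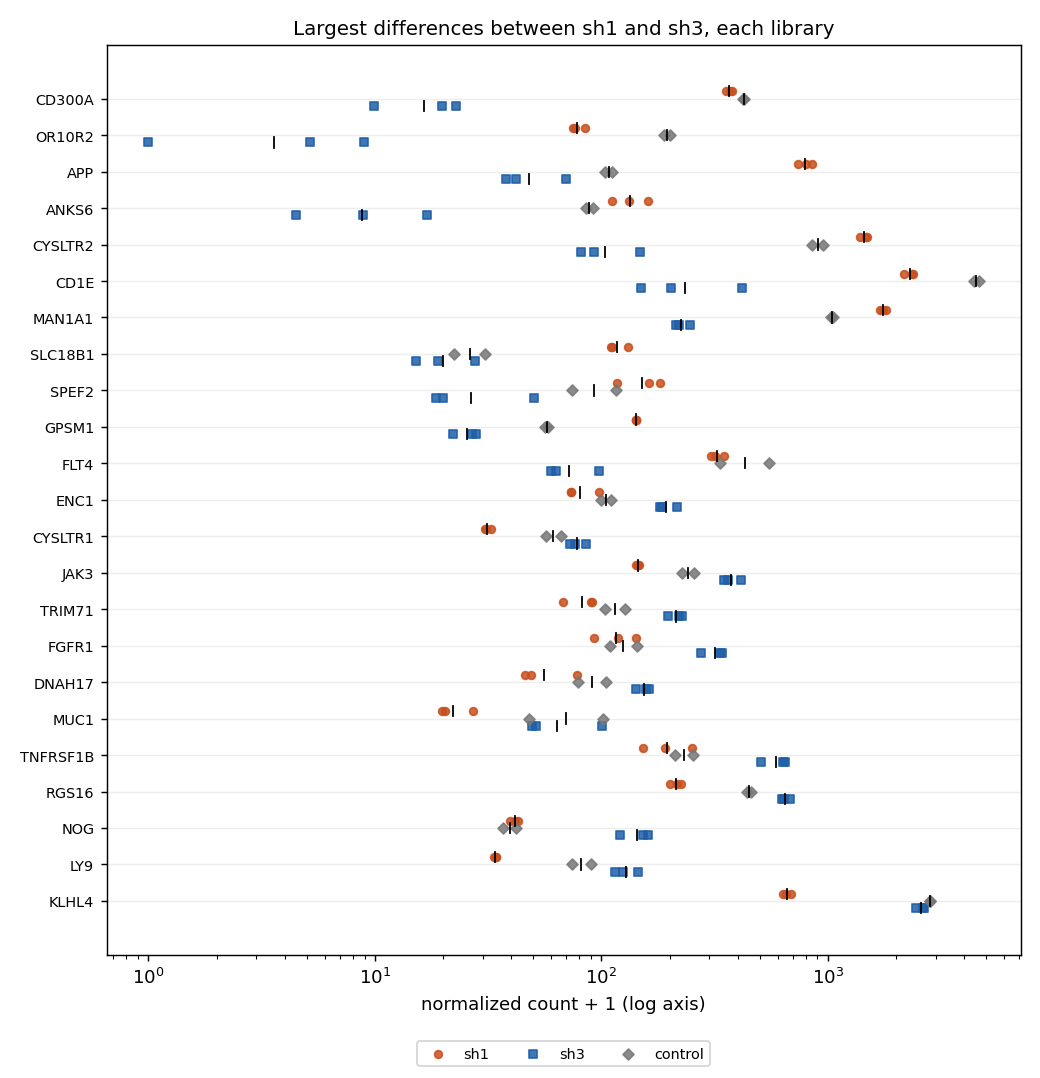
Normalized count + 1 on a log axis is plotted for each of 8 libraries, for 11 of the 12 genes with the largest differences higher in sh1 (upper rows) and the 12 higher in sh3 (lower rows); black bars are means on the log scale. The sh1 and sh3 points of a gene do not overlap, by the rule that chose the genes, and control lies beside sh1 for CD300A, beside sh3 for KLHL4 and between the hairpins for LY9.

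Among genes with a mean of at least 5000 normalized counts, the 5 with the smallest p were MYO7B, CD1B, RGPD1, TLX3 and DAZAP2. MYO7B, an unconventional myosin, stood at 14610.5, 14713 and 13849 in sh1, at 4706, 4729 and 5373 in sh3 and at 14442 and 14998 in control. TLX3, the homeobox oncogene of this leukemia type (chr5:171309284-171312134), stood at 7892, 7806 and 7969.7 in sh1, at 13195, 13188 and 12104 in sh3 and at 7428 and 7498 in control. For both genes sh3 was the displaced group, low for MYO7B and high for TLX3. The hairpins differed by 1.55 ± 0.06 (adjusted p = 3.1e-08) for MYO7B and by -0.70 ± 0.04 (adjusted p = 3.3e-06) for TLX3. DAZAP2 (0.65 ± 0.04) and RGPD1 (0.61 ± 0.04) were higher in sh1, but RGPD1 belongs to a family of near-identical copies among which reads could be split, and DAZAP2 overlaps SMAGP.

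Gene lists were described by counts, without a test of the list. The 41 lists hold 1055 symbols, of which 909 were tested, and the median difference over all genes tested was -0.0015. The shares to read them against are 5.61% called higher in sh1 and 5.83% called higher in sh3.

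**Figure D3:**
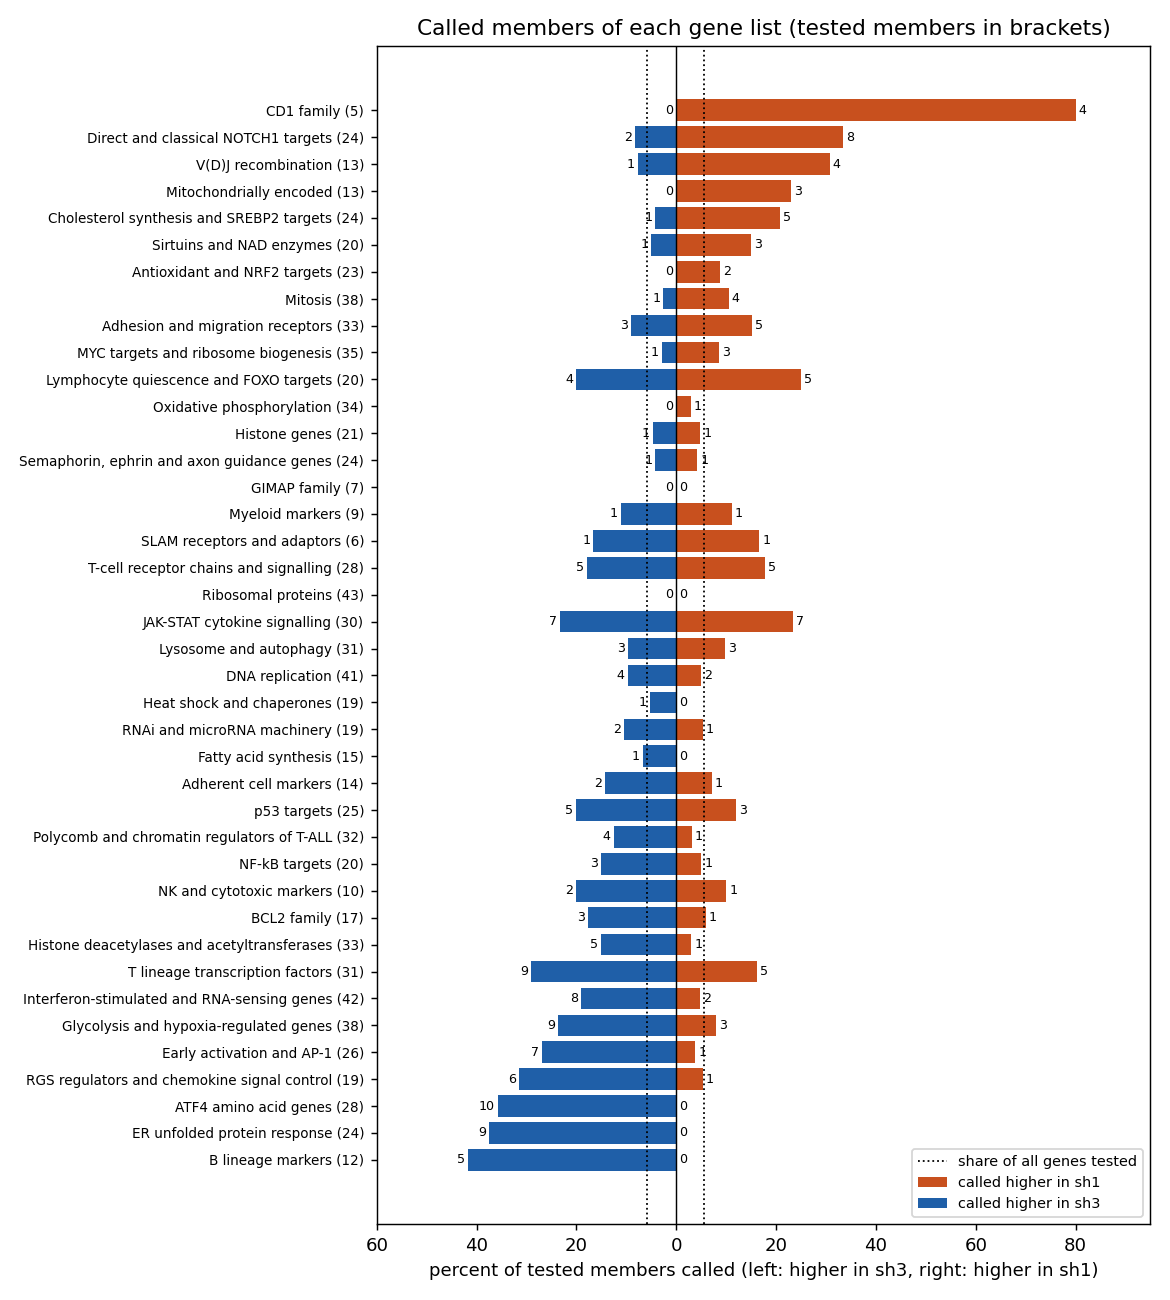
For each list with at least 5 tested members, bars give the percent of tested members called higher in sh1 (right) and higher in sh3 (left), with the number of genes at the bar end and the number tested in brackets. Dotted lines mark the share of all genes tested (5.61% and 5.83%). The CD1 family reaches 4 of 5 on the right, the B lineage, ER unfolded protein and ATF4 lists have called members on the left side alone, and ribosomal proteins have none on either side.

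The JAK-STAT list had 14 of 30 tested members called, 7 in each direction, with a median of -0.077. In this pathway a cytokine receptor activates a JAK kinase, the kinase activates STAT transcription factors, and these induce CISH and the SOCS proteins, which feed back on the receptor, as well as the survival kinase PIM1. Feedback genes and some receptors lay on the sh1 side, and the kinase JAK3 with STAT5A and STAT6 on the sh3 side. Without sh3 C the counts were 8 higher in sh1 and 5 higher in sh3.

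Feedback genes and the kinase target were higher in sh1. CISH (chr3:50606490-50611831) stood at 17944, 18123 and 17532 in sh1, at 9773, 10932 and 11848 in sh3 and at 19598 and 20887 in control. PIM1 (chr6:37170203-37175426) stood at 10284, 10044 and 10225 in sh1, at 5451, 5756 and 6435 in sh3 and at 11176 and 12035 in control. For both genes sh3 was low in all 3 libraries and sh1 did not differ from control at the threshold. The hairpins differed by 0.72 ± 0.06 (adjusted p = 3.1e-05) for CISH and by 0.80 ± 0.06 (adjusted p = 1.2e-05) for PIM1. SOCS1 and SOCS2, named after their values were seen, differed in the same direction by 0.87 ± 0.12 (adjusted p = 0.0009) and 0.23 ± 0.04 (adjusted p = 0.0058), and SOCS3 gave 0.50 ± 0.16 (adjusted p = 0.064). SOCS1 stood at 1646, 1611 and 1741 in sh1, at 748, 1016 and 996 in sh3 and at 1663 and 2213 in control.

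The reference promoter windows of CISH, PIM1 and SOCS1 are shown because these genes moved together between the hairpins. Each is the 250 bases before the gene start from RefSeq (GRCh38.p14), 5′ to 3′ on the gene's strand: chr3:50611775-50612024 on the minus strand, chr6:37169902-37170151 on the plus strand and chr16:11256205-11256454 on the minus strand. Capitals mark the STAT motif TTCNNNGAA, which reads the same on both strands.
CISH: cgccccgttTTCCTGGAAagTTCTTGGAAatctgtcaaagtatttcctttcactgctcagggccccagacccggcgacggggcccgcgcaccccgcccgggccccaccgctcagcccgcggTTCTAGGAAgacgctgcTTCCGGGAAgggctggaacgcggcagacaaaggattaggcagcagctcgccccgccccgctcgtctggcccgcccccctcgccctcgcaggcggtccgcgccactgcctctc
PIM1: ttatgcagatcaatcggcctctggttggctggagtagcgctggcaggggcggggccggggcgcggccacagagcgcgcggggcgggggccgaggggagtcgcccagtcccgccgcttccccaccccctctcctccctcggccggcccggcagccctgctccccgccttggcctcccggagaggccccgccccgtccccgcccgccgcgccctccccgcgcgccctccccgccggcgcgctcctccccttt
SOCS1: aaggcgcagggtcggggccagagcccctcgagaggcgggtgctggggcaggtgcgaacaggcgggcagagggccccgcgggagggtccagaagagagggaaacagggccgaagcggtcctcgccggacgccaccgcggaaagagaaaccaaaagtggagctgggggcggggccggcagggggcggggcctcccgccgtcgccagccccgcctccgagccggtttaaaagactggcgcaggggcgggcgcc

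The CISH window held 4 matches, which start 241, 230, 129 and 112 bases before the RefSeq gene start, and the PIM1 and SOCS1 windows held 0. The RefSeq starts differ from those of the GENCODE coordinates given for CISH and PIM1, and the CISH window reaches into its GENCODE interval. Of 34943 promoter windows of this length, 2293 (6.56%) held at least 1 match and 5 (0.0143%) held at least 4. Of the 30 JAK-STAT genes tested 26 had a window, and CISH was the only 1 of these with a match. These are matches of letters and not measured binding, and a window without a match says nothing about sites elsewhere.

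Among receptors, IL7R, the alpha chain of the interleukin 7 receptor, stood at 19405, 20444 and 19038 in sh1, at 15328, 14399 and 13900.5 in sh3 and at 18162 and 18796 in control. All sh3 values were below all others, with a difference of 0.43 ± 0.05 (adjusted p = 0.00014). IFNGR1, a chain of the interferon gamma receptor, and IL4R, a chain of the interleukin 4 receptor, were named after their values were seen and were higher in sh1 by 0.60 ± 0.06 (adjusted p = 9e-05) and 0.41 ± 0.09 (adjusted p = 0.012); IL4R was not called without sh3 B (0.33, adjusted p = 0.0529).

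JAK3 and STAT5A lay the other way. JAK3, the kinase that pairs with the common gamma chain (chr19:17824780-17848071), stood at 146, 144 and 141 in sh1, at 346, 413 and 362 in sh3 and at 255 and 226 in control. STAT5A, named after its values were seen, stood at 566, 654 and 491 in sh1, at 799, 871 and 876 in sh3 and at 554 and 503 in control. JAK3 differed from control downward with sh1 (-0.73, adjusted p = 0.0069) and upward with sh3 (0.63, adjusted p = 0.0051), while STAT5A stood apart in sh3 alone. The hairpins differed by -1.37 ± 0.11 (adjusted p = 2e-05) for JAK3 and by -0.58 ± 0.10 (adjusted p = 0.0037) for STAT5A. The called members IL2RG, IFNAR1, STAT6 and the phosphatase gene PTPN6 had differences of -0.20, -0.18, -0.15 and -1.05. Each of these 4 lost its call without sh3 A (adjusted p from 0.0731 to 0.148) and without sh3 B (adjusted p from 0.070 to 0.172), and some also without sh1 A, sh1 B, sh1 C or sh3 C.

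**Figure D4:**
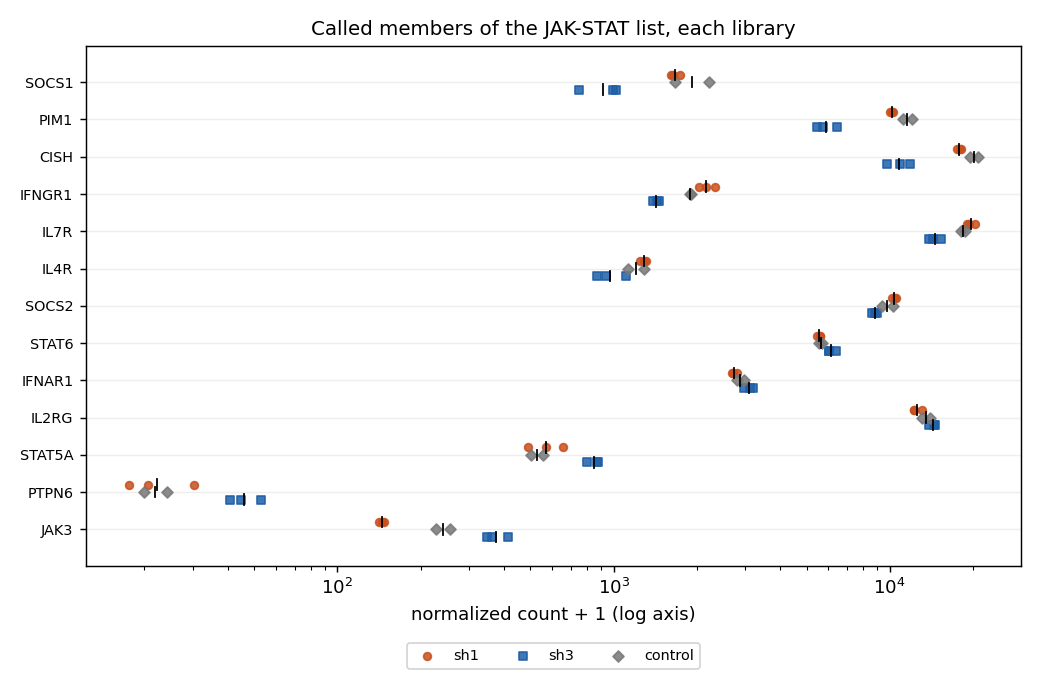
Normalized count + 1 on a log axis is plotted for each of 8 libraries for 13 of the 14 called members of the JAK-STAT list, ordered by the difference of sh1 minus sh3; black bars are means on the log scale. The feedback genes SOCS1 and CISH and the kinase PIM1 are at the top with sh3 to the left of sh1 and control, and JAK3 is at the bottom with sh1, control and sh3 in ascending order.

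NOTCH1 is the driver of this leukemia type, and its direct targets include DTX1, a feedback regulator, and receptors such as IL7R and NOTCH3. Of 24 tested members of the NOTCH1 target list, 8 were called higher in sh1 and 2 higher in sh3, with a median of 0.22, and the counts were the same without sh3 C. DTX1 stood at 16942, 15736 and 15464 in sh1, at 11054, 11736 and 11613 in sh3 and at 18256 and 20016 in control. NOTCH3 stood at 11415, 10916 and 10003 in sh1, at 7174, 7053 and 7130.1 in sh3 and at 12338 and 11630.1 in control. Neither gene's hairpin groups overlapped, and sh3 was the lowest group for both, with differences of 0.48 ± 0.05 (adjusted p = 0.00011) and 0.60 ± 0.05 (adjusted p = 3.1e-05). DTX1 was also below control with sh1 (-0.25, adjusted p = 0.025).

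CD300A, described above, is also in that list and was higher in sh1, but not all members followed. HES4 and HES1, transcriptional repressors of the same family, and TCF7, the T-cell transcription factor TCF-1, were named after their values were seen. HES4 stood at 75.8, 77.2 and 81.9 in sh1, at 16.9, 14.1 and 16.1 in sh3 and at 53.4 and 50.9 in control. HES1 stood at 2382, 2403 and 2705 in sh1, at 3532, 3474 and 3037 in sh3 and at 2203 and 2402 in control. The relatives thus lay in opposite directions, HES4 by 2.25 ± 0.20 (adjusted p = 4.7e-05) and HES1 by -0.42 ± 0.07 (adjusted p = 0.003). TCF7 was higher in sh1 by 1.29 ± 0.22 (adjusted p = 0.0027), at 141, 183 and 183 against 54.0, 98.8 and 58.4 in sh3, and both controls were above all of these at 327 and 273.

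T-lineage transcription factors were called in both directions, 5 of 31 higher in sh1 and 9 higher in sh3 (4 and 8 without sh3 C), with a median of -0.098. GATA3, which specifies the T lineage, stood at 3175, 3148 and 3075 in sh1, at 4510.5, 4428 and 4033 in sh3 and at 2880.5 and 2949 in control. RUNX3, a factor of the CD8 lineage, stood at 995, 836 and 899 in sh1, at 398, 361 and 279 in sh3 and at 629 and 454 in control. The GATA3 difference came with a high sh3 group, and for RUNX3 control lay between the hairpins. The values were -0.46 ± 0.05 (adjusted p = 0.00017) for GATA3 and 1.40 ± 0.15 (adjusted p = 0.00011) for RUNX3. TLX3 is the third member named by the rule, and TOX, ETS1 and FLI1, named after their values were seen, were higher in sh3 with differences of -0.32, -0.30 and -0.30.

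T-cell receptor genes were also mixed, with 5 of 28 higher in each direction, also without sh3 C, and a median of -0.018. THEMIS, a signalling protein needed for thymocyte selection, stood at 968, 1110.2 and 897 in sh1, at 460.4, 515 and 451 in sh3 and at 519 and 474 in control. CD28, the costimulatory receptor, stood at 366, 337 and 323 in sh1, at 189, 172 and 174 in sh3 and at 451 and 401 in control. The group that stood apart from control was sh1 for THEMIS (0.99, adjusted p = 0.00044) and sh3 for CD28 (-1.25, adjusted p = 4.6e-05), while the hairpins differed in the same direction for both, by 1.06 ± 0.09 (adjusted p = 4e-05) and 0.93 ± 0.10 (adjusted p = 0.00015). CD3G, a chain of the receptor complex, differed by 0.49 ± 0.04 (adjusted p = 4.8e-05). The adaptors SIT1 and LCP2, named after their values were seen, were higher in sh3, with differences of -0.45 and -0.31.

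Terminal transferase, DNTT, adds bases at the junctions of rearranging receptor genes and was named after its values were seen. It stood at 30.7, 24.6 and 31.3 in sh1, at 0.905, 2.31 and 4.43 in sh3 and at 65.7 and 58.3 in control. The 3 groups did not overlap, and the difference between hairpins was 3.19 ± 0.40 (adjusted p = 0.00041), on counts near the floor in sh3. Of the 13 V(D)J recombination genes tested, 4 were called higher in sh1 and 1 higher in sh3, with a median of 0.018 (3 and 1 without sh3 C).

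CD1 proteins are surface molecules that present lipids to T cells, and CD1a marks cortical thymocytes. Of the 5 family members, which form a cluster on chromosome 1, 4 were called, all higher in sh1 (also without sh3 C), and CD1C was not (0.67 ± 0.26, adjusted p = 0.13, and 0.42 without sh3 B). CD1E (chr1:158353696-158357553) stood at 2171, 2384 and 2356 in sh1, at 203, 149 and 418 in sh3 and at 4648 and 4417 in control. CD1B stood at 9949, 11153 and 11383 in sh1, at 5029.6, 5017 and 5112 in sh3 and at 10971 and 11286 in control. CD1A stood at 491, 545 and 546 in sh1, at 327, 319 and 364 in sh3 and at 766 and 931 in control. In all 3 genes sh3 was the lowest group; CD1A was also lower with sh1 than in control (-0.68, adjusted p = 0.0054), and CD1B with sh1 overlapped control. The hairpins differed by 3.30 ± 0.27 (adjusted p = 2.2e-05) for CD1E, 1.10 ± 0.05 (adjusted p = 3.7e-07) for CD1B and 0.65 ± 0.10 (adjusted p = 0.0013) for CD1A.

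Neighbours outside the family lay the same way. Within 500 kb of CD1E, 10 genes were tested and 8 were called, all higher in sh1. The olfactory receptor genes OR10K1 and OR10R2 begin 107.9 and 118.5 kb downstream of the CD1E start. OR10R2 (chr1:158472220-158480936) stood at 75.5, 73.8 and 83.4 in sh1, at 4.16, 0.0 and 7.96 in sh3 and at 188 and 201 in control. OR10K1, named after its values were seen, stood at 36.4, 31.1 and 33.1 in sh1, at 0.807, 0.903 and 3.76 in sh3 and at 59.7 and 52.4 in control. Both had sh3 near the floor, and the differences were 4.45 ± 0.61 (adjusted p = 0.00071) and 3.76 ± 0.41 (adjusted p = 0.00016). On the other side CD1D (0.55), the processed pseudogene AL138899.2 (0.97) and KIRREL1 (0.52), which lies 360.4 kb from the CD1E start, were called. OR6Y1, 190.9 kb away, was not (-0.33 ± 0.31, adjusted p = 0.56). Reads of the pseudogene could be shared with a similar copy elsewhere. The region was picked after its values were seen.

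**Figure D5:**
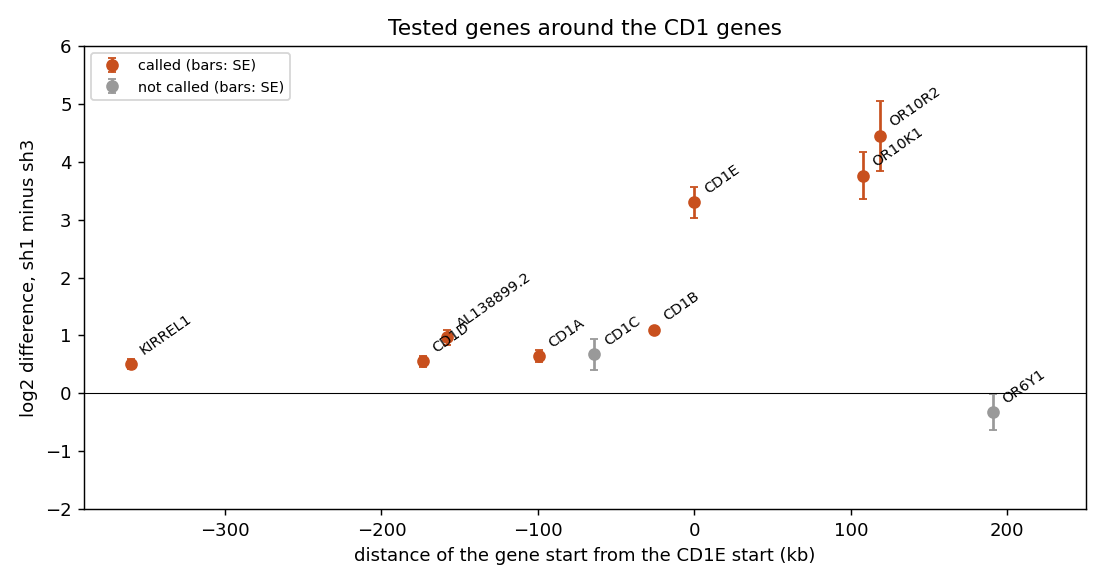
The log2 difference of sh1 minus sh3 is plotted with its SE for the 10 tested genes within 500 kb of the CD1E start, against the distance of each gene's start in kb. The 8 called genes lie between 0.52 and 4.45, with CD1E, OR10K1 and OR10R2 the highest, and CD1C and OR6Y1 are not called.

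Runs of at least 3 neighbouring tested genes called in the same direction numbered 22, with 9 higher in sh1 and 13 higher in sh3, and the longest had 4 genes. C3orf18, HEMK1, CISH and MAPKAPK3 form such a run on chromosome 3, with differences of 1.31, 0.42, 0.72 and 0.40, in which C3orf18 overlaps HEMK1 and CISH overlaps MAPKAPK3. Another run, on chromosome 5, holds DNAJC21 (0.24), SPEF2 (2.51), IL7R (0.43) and CAPSL (0.84). These runs were found after the values were seen, and how many to expect from the share of genes called was not tested.

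The unfolded protein and ATF4 lists lay on the sh3 side of the direct comparison, which does not say which hairpin departed from control. This did not hold for every stress list: of 23 antioxidant genes 2 were called higher in sh1 and 0 higher in sh3. The unfolded protein response raises chaperones and degradation factors of the endoplasmic reticulum (ER), and ATF4 raises amino acid synthesis and transport genes and further regulators when translation is restrained. Of 24 ER genes 9 were called, all higher in sh3, with a median of -0.149, and without sh3 C the count was 5. Of 28 ATF4 genes 10 were called, all higher in sh3, with a median of -0.147; without sh3 C the counts were 1 higher in sh1 and 9 higher in sh3.

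HSPA5, the main ER chaperone, stood at 6652, 6686 and 6665 in sh1, at 9129, 9416 and 8489 in sh3 and at 7534 and 8195 in control. EDEM1, which directs misfolded glycoproteins to degradation, stood at 13102, 11352 and 10689 in sh1, at 18008, 17668 and 18346 in sh3 and at 13569 and 11714 in control. TRIB3, a pseudokinase induced by ATF4, stood at 2549.8, 2552 and 2553 in sh1, at 3723, 3908 and 4035 in sh3 and at 3702 and 3959.8 in control. The hairpins did not overlap for any of these, but the position of control differed: between them for HSPA5, overlapping sh1 for EDEM1 and overlapping sh3 for TRIB3. The differences were -0.43 ± 0.05 (adjusted p = 0.00021) for HSPA5, -0.63 ± 0.07 (adjusted p = 0.00024) for EDEM1 and -0.61 ± 0.05 (adjusted p = 2e-05) for TRIB3. SHMT2, a mitochondrial enzyme of serine breakdown (-0.33), and CEBPB, a transcription factor of the ATF4 network (-0.35), were likewise higher in sh3 than in sh1. Both were below control with sh1 (-0.37, adjusted p = 0.00096, and -0.38, adjusted p = 0.002). With sh3 neither differed from control at the threshold (-0.05, adjusted p = 0.53, and -0.03, adjusted p = 0.76). DDIT4 (-0.67) and DDIT3 (-0.42) were named after their values were seen. Both were above control with sh3 (0.80, adjusted p = 0.00094, and 0.43, adjusted p = 0.0043). With sh1 neither differed from control at the threshold (0.13, adjusted p = 0.57, and 0.01, adjusted p = 0.95).

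Glycolysis and hypoxia-regulated genes had 9 of 38 members higher in sh3 and 3 higher in sh1, with a median of -0.081 (9 and 1 without sh3 C). SLC2A3, a glucose transporter, stood at 1931, 2061 and 1595 in sh1, at 3329, 3254 and 2649 in sh3 and at 1375 and 1181 in control. Both hairpins were above control here, sh1 by 0.54 (adjusted p = 0.026) and sh3 by 1.26 (adjusted p = 6.1e-05), and they differed by -0.73 ± 0.11 (adjusted p = 0.0012). LDHA, lactate dehydrogenase A (-0.31 ± 0.04, adjusted p = 0.00086), and VEGFA, the vascular growth factor (-0.53 ± 0.07, adjusted p = 0.00057), were higher in sh3. In both of these sh1 was below control, with differences of -0.27 (adjusted p = 0.011) and -0.43 (adjusted p = 0.0095). PGAM1, a glycolytic enzyme named after its values were seen, lay the other way (0.26 ± 0.04, adjusted p = 0.002).

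p53 is a deacetylation substrate of SIRT1, and its target genes were split. Of 25 tested, 3 were called higher in sh1 and 5 higher in sh3, with a median of -0.023 (2 and 4 without sh3 C). CDKN1A, the cell-cycle inhibitor p21, stood at 166, 128 and 117 in sh1, at 43.2, 30.9 and 38.7 in sh3 and at 110.3 and 102 in control. BBC3, the pro-apoptotic PUMA, stood at 344, 331 and 350.4 in sh1, at 531, 617 and 545 in sh3 and at 405 and 347 in control. The arrest gene was low in sh3 and the death gene was high in sh3, with differences of 1.84 ± 0.19 (adjusted p = 0.00011) and -0.72 ± 0.09 (adjusted p = 0.00055). TP53INP1, a stress-induced p53 cofactor that overlaps NDUFAF6, differed by 1.95 ± 0.23 (adjusted p = 0.00028). FAS, a death receptor named after its values were seen, differed by -0.47 ± 0.07 (adjusted p = 0.0012).

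The sirtuin and NAD list, which holds SIRT1 itself, had 3 of 20 members called higher in sh1 and 1 higher in sh3, with a median of -0.01. CD38, an NAD-consuming enzyme of the cell surface, stood at 14607, 14124 and 13489 in sh1, at 17171, 18059 and 16255 in sh3 and at 17584 and 19219.6 in control. It was low in sh1 and differed between hairpins by -0.29 ± 0.05 (adjusted p = 0.0047). Without sh3 C the list counts were 1 and 2. Each of the 3 members called higher in sh1 lost its call when some single hairpin libraries were left out, and CD38 kept its call.

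Enzymes that remove or add acetyl groups on histones had 5 of 33 members higher in sh3 and 1 higher in sh1, with a median of 0.001 and the same counts without sh3 C. HDAC7, a class IIa deacetylase of thymocytes, stood at 2086, 1845 and 2053 in sh1, at 4259.6, 4216 and 3508 in sh3 and at 2000.3 and 1722 in control. HDAC5, of the same class, stood at 712, 602 and 754 in sh1, at 1144, 1157 and 1077 in sh3 and at 506 and 441 in control. HDAC7 was above control with sh3 (1.10, adjusted p = 3.3e-05) and not at the threshold with sh1 (0.10, adjusted p = 0.57), and HDAC5 was above control with both hairpins (0.54, adjusted p = 0.014 for sh1 and 1.25, adjusted p = 2.3e-05 for sh3). The differences of -0.998 ± 0.085 (adjusted p = 3.1e-05) and -0.71 ± 0.09 (adjusted p = 0.00052) were followed by the acetyltransferase coactivator NCOA3 (-0.35 ± 0.06, adjusted p = 0.0029). JARID2, a cofactor of the Polycomb complex PRC2, was higher in sh3 by the same test, at 3088, 3200.0 and 2920.0 against 2143, 2036 and 1953 in sh1 (-0.59 ± 0.06, adjusted p = 0.00014). HDAC7 overlaps SLC48A1 and NCOA3 overlaps SULF2.

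Immediate early genes, which respond within minutes to receptor signals, had 7 of 26 members higher in sh3 and 1 higher in sh1, with a median of -0.253 (8 and 1 without sh3 C). EGR1 stood at 1272, 1273 and 1307 in sh1, at 2311, 2452 and 1971 in sh3 and at 1471 and 2121 in control, so that control overlapped sh3. It differed by -0.80 ± 0.12 (adjusted p = 0.0011), and IER2 by -0.48 ± 0.06 (adjusted p = 0.00038). KLF6 was the exception with 0.46 ± 0.05 (adjusted p = 0.0001). RGS proteins and arrestins, which end signals of G-protein-coupled receptors, had 6 of 19 members higher in sh3 and 1 higher in sh1, with a median of -0.128 and the same counts without sh3 C. RGS9 (-0.81 ± 0.11, adjusted p = 0.00062) joined RGS16, and the arrestin ARRB1 lay the other way (0.75 ± 0.09, adjusted p = 0.00038).

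Interferon-stimulated genes and sensors of double-stranded RNA had 8 of 42 members higher in sh3 and 2 higher in sh1, with a median of -0.104 (7 and 2 without sh3 C). DHX58, a regulator of RNA sensing, stood at 741, 701 and 711 in sh1, at 1066, 1032 and 983 in sh3 and at 758 and 699 in control. BST2, a surface protein that tethers budding viruses, stood at 988, 1158 and 1201 in sh1, at 540.1, 566 and 595 in sh3 and at 1276 and 1429 in control. DHX58 was higher and BST2 lower in sh3 than elsewhere, with differences of -0.52 ± 0.07 (adjusted p = 0.00053) and 0.97 ± 0.09 (adjusted p = 3.6e-05). The genes that process and load small RNAs had 3 of 19 members called, 1 higher in sh1 and 2 higher in sh3, with a median of -0.016, and without sh3 C limma called 0 of them, with 6 at an unadjusted p under 0.05.

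Lists of growth and metabolic genes ranged from none called to above the share of all genes (11.4%). Of 43 ribosomal protein genes, 0 were called in limma, 2 had an unadjusted p under 0.05 (26% of all genes tested did) and the differences ran from -0.12 to 0.19 (without sh3 C, 0 called and 1 with an unadjusted p under 0.05). The oxidative phosphorylation list had 1 of 34 called, the respiratory chain carrier CYCS, and heat shock genes had 1 of 19, with the same counts without sh3 C. MYC targets and ribosome biogenesis genes had 3 of 35 called higher in sh1 and 1 higher in sh3 (2 and 1 without sh3 C). DNA replication genes had 2 of 41 called higher in sh1 and 4 higher in sh3 (2 and 3 without sh3 C). Mitosis genes had 4 of 38 called higher in sh1 and 1 higher in sh3, and without sh3 C these counts were 2 and 0. Cholesterol synthesis genes had 5 of 24 higher in sh1 and 1 higher in sh3, with a median of 0.075 and the same counts without sh3 C. The enzyme IDI1 differed by 0.27 ± 0.05 (adjusted p = 0.0074), and MVK and TM7SF2, each of which overlaps another coding gene, differed by 0.53 ± 0.11.

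T-lineage identity was checked against markers, and every hairpin library expressed CD3D, CD7 and CD3G (CD3D and CD7 were named after their values were seen). CD3D ran from 12186 to 13756 in sh1 and from 10907 to 11155 in sh3, CD7 from 9627 to 10109 and from 6748 to 7671, and CD3G from 8187 to 8794 and from 5884 to 6320.1. All 3 were higher in sh1 than in sh3, by 0.25 (adjusted p = 0.0062), 0.48 (adjusted p = 0.00024) and 0.49 (adjusted p = 4.8e-05). In control CD3D stood at 16043 and 16676 and CD7 at 12233 and 13298, above every hairpin library. Both were below control also with sh1 (-0.32, adjusted p = 0.0072, and -0.37, adjusted p = 0.0069). CD3G stood at 8331 and 8209 in control and overlapped sh1. Other T-lineage markers lay in both directions, and the markers CD3E, CD247, CD5, CD2 and PTCRA are not reported here. GATA3 (-0.46), RAG1 (-0.15) and BCL11B were called higher in sh3, and CD1A (0.65), DNTT (3.19) and NOTCH1 (0.28) higher in sh1. The calls of RAG1, BCL11B and NOTCH1 were lost without some single libraries. BCL11B, DNTT and NOTCH1 were named after their values were seen. Genes of the B lineage list were called in 5 of 12 cases, all higher in sh3, with a median of -0.252 and the same counts without sh3 C. The summed level of the list was 34380 to 37670 in sh1, 46898 to 48265 in sh3 and 40632 to 43246 in control, and 5 of its 17 members in the table had a mean below 10. CD79A, a chain of the B-cell receptor also found in some T-ALL, stood at 17609, 18289.5 and 19281 in sh1, at 24766, 23398 and 23365 in sh3 and at 23989 and 25708 in control, and EBF1, a B-cell transcription factor, stood at 958, 1042 and 969 in sh1, at 1426, 1551 and 1407 in sh3 and at 902 and 897 in control. CD79A was thus low in sh1 and EBF1 high in sh3, with differences of -0.37 ± 0.05 (adjusted p = 0.00042) and -0.56 ± 0.06 (adjusted p = 0.0002). Summed levels of the other marker lists were 2915 to 3099 in sh1 and 3561 to 3634 in sh3 for myeloid cells, 1938 to 2002 and 2002 to 2045 for NK and cytotoxic cells, 369.5 to 392 and 341 to 386 for erythroid cells and megakaryocytes, and 31959 to 33422 and 32021 to 34090 for adherent cells. Single genes weighed heavily in these sums: CD79A made up 52.5% of the B lineage sum and CEBPB 74.6% of the myeloid sum. PRF1 made up 36.9% of the NK and cytotoxic sum, EPOR 80.7% of the erythroid sum and VIM 75.8% of the adherent sum. The myeloid sums in control were 4073 and 4091, above those of both hairpins. CTSG, the called myeloid marker besides CEBPB, was higher in sh1 (1.06). The part of these marker lists in the differences was not tested.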

How the data were processed

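Strand-specific RNA libraries of DND41 cells were sequenced, per the labels' protocols. What the authors deposited for each gene symbol is a signal, normalized counts; kallisto 0.44.0, DESeq and hg38 are named in the submitters' processing notes. How transcripts were annotated and summed to genes, and whether strand was used, is not given in the sources. Because the values are not whole, no count model was fitted, and read depth is unknown.

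Values were analysed as log2(value + 1), which understates the change of low genes, for rows whose 8-library mean reached 10. One model (limma 3.58.1, R 4.3.3, mean-variance trend) held 3 group means (5 residual degrees of freedom), so the control libraries add to the estimate of spread. Tests were two-sided with Benjamini-Hochberg adjustment over 13885 genes, and an adjusted p under 0.05 made a call. The procedure was tested on simulated data. Coordinates and overlaps are from GENCODE release 29 on GRCh38 (18031 rows matched), and promoter windows are from RefSeq. Overlaps are not all given beside the gene: SHMT2, SOCS1, STAT6, IL2RG, TCF7, LCP2, DDIT3, FAS, RAG1 and PVRIG2P also overlap another coding gene.

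The groups compared, the gene lists and the rule for named genes were chosen with earlier results of these data known. The rule took SIRT1, the 12 largest differences in each direction among called genes whose mean reached 50 and whose hairpin groups do not overlap, the 3 called members per list of smallest p whose mean reached 50, and the 5 called genes of smallest p whose mean reached 5000. A few of these genes are left unreported here but stay in the counts. Alternatives were other pseudocounts, filters, scalings and variance models, a replicate block, a fit of the compared groups alone and leaving out each library.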

Additional observations from a re-analysis of the deposited data

How the results depend on the processing

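The number of genes that separated the hairpins depended on the variance model and on single libraries, and the balance between directions did not shift with scaling by over 10 percentage points. Without the trend 968 genes were called (481 higher in sh1 and 487 higher in sh3), and sh1 and sh3 differed from control in 236 and 1531. With each library left out in turn the count ran from 925 to 1770 (457 to 855 higher in sh1 and 468 to 915 higher in sh3), called differences of at least 1 from 141 to 172, sh1 against control from 159 to 782 and sh3 against control from 860 to 2931, both lowest without control C. A filter at a mean of 50 left 95 called differences of at least 1, since fewer low genes were tested. Fitting only the groups compared gave 462 genes for sh1 against control. The SIRT1 difference stayed above 0 and uncalled throughout, from 0.117 without sh3 A to 0.191 without sh3 B. Of the 120 genes taken by the rule besides SIRT1, 86 were called under every alternative, 90 with any 1 library left out and 102 without sh3 C, and 0 changed direction. Libraries of sh1 and sh3 that share a letter did not deviate together (correlation of deviations -0.062 to -0.039 across genes). With control, the same-letter values were 0.043 (A) and 0.058 (C) for sh1 and -0.013 (A) and -0.039 (C) for sh3. The replicate block called 1495 genes between the hairpins and 549 for sh1 against control. The signal's depth is unknown, so no counting interval could be given, and with 3 libraries a group small differences of low genes were not detectable.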

Other observations

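Further gene groups separated the hairpins. Homing and adhesion receptors had 5 of 33 members called higher in sh1 and 3 higher in sh3, with a median of -0.017 (4 and 2 without sh3 C). The selectin ligand SELPLG stood at 1284, 1198 and 1309.8 in sh1, at 891, 816 and 806 in sh3 and at 1393 and 1406 in control. It was lowest in sh3, with a difference of 0.59 ± 0.06 (adjusted p = 0.00015 in limma). Among NF-kB targets, with 1 of 20 higher in sh1 and 3 higher in sh3 (1 and 4 without sh3 C), the inhibitor of apoptosis BIRC3 (-0.52 ± 0.09, adjusted p = 0.0035) and the cytokine LTB (0.52 ± 0.09, adjusted p = 0.0042) lay in opposite directions. The survival gene BCL2 was higher in sh3 (-0.29 ± 0.06, adjusted p = 0.0099).

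Some genes outside the lists were picked after their values were seen. ENPEP, which encodes the surface enzyme glutamyl aminopeptidase, stood at 5147, 5240.2 and 5505 in sh1, at 2173, 2024 and 2179 in sh3 and at 5769 and 5515 in control, a difference of 1.32 ± 0.05 (adjusted p = 4.4e-08). The glucose cotransporter gene SLC5A1 stood at 7.37, 6.59 and 1.52 in sh1, at 49.6, 85.7 and 89.8 in sh3 and at 3.32 and 3.29 in control. The sh3 group was thus high for SLC5A1 (-3.76 ± 0.48, adjusted p = 0.00049), at low counts. The pseudogene PVRIG2P was listed at 0 in all 3 sh1 libraries, at 38.1, 44.9 and 34.6 in sh3 and at 19.4 and 59.5 in control, and its reads could be shared with a near-identical copy.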
